A study of Homo sapiens with 5 samples.

Results

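Genes encoding collagen chains, laminin chains, integrin subunits, fibronectin and vitronectin were examined in mRNA-seq data of CFIm25-mutant H9 cells. Members were the protein-coding genes of the deposited gene table whose symbol is COL, a number, A and a number, or starts with LAMA, LAMB, LAMC, ITGA or ITGB and a number, together with ITGAV, FN1 and VTN. This gave 79 genes of 33857 listed, of which 17558 are protein-coding. They comprise 43 collagen chains, 11 laminin chains, 20 integrin subunits, FN1, VTN and 3 integrin-binding proteins that share the prefix but are not subunits (ITGB1BP1, ITGB1BP2 and ITGB3BP).

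H9 is a human embryonic stem cell line, and all samples were grown undifferentiated in mTeSR medium on Matrigel, a basement membrane extract. The 2 control samples are labelled as control KO and are called mock controls here, after the study, whose mock controls are clones given the empty CRISPR vector. The study also used untransfected H9 cells, and the labels do not settle which kind these 2 samples are. The 3 CFIm25-m samples are labelled as CFIm25 KO. Polyadenylated RNA of each was sequenced. The CFIm25-m samples are single-cell clones from 3 different guide RNAs against NUDT21, the gene of the mRNA 3' processing factor CFIm25, and the study describes them as mutants with reduced and shortened protein rather than as nulls. Each CFIm25-m value thus belongs to 1 clone, so clone and guide cannot be told apart.

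Values are normalized counts, that is, reads scaled by the size factor of their library. Libraries held between 18754108 and 23372391 reads counted in genes. NUDT21 stood at 6503 and 6398 in the mock controls, against 4035, 3281 and 3400.2 in CFIm25-m (log2 fold change -0.86, SE 0.11, adjusted p = 0.00431 by limma-trend), and every library labelled as edited was below both controls. Embryonic stem cell markers (POU5F1, SOX2, NANOG, LIN28A, DNMT3B, SALL4, TDGF1 and L1TD1) summed to 183614 and 186970 in the mock controls, and to between 160422 and 167131 in CFIm25-m. By limma-trend 0 of these 8 markers passed the threshold (1.88% of all genes did) and 3 had an unadjusted p under 0.05 (15.1% of all genes). With DESeq2 1 passed, against 3.7% of all genes. The groups did not overlap in 6 of the 8, against 36.8% of all genes. The log2 fold change was negative in 6 and positive in 2, with a median of -0.26. In each of the mesoderm, endoderm, neural ectoderm, mesenchymal and trophoblast marker lists, 1 gene was high enough to be tested and 0 were called by limma-trend or DESeq2. The endoderm gene AFP was at 10.4 and 4.83 in the mock controls and at 26.1, 17.1 and 14.4 in CFIm25-m, with an unadjusted p of 0.0207 and no overlap (log2 fold change 1.27, adjusted p = 0.232). The 4 others had an unadjusted p over 0.05. Among them, the tested genes of the neural ectoderm (log2 fold change -0.99) and mesenchymal (-0.63) lists also did not overlap, both lower in CFIm25-m. The groups overlapped in those of the mesoderm and trophoblast lists. The mesenchymal list (DCN, LUM, POSTN, TWIST1, PRRX1 and MEOX1), whose cells make much collagen, summed to 32.3 and 39.6 in the mock controls and to between 20.7 and 24.1 in CFIm25-m. The endoderm list summed to 21.9 and 16.4 and to between 19.8 and 49.1, and the mesoderm list to 23.1 and 29.0 and to between 22.0 and 35.6. The neural ectoderm list summed to 32.3 and 33.8 and to between 16.4 and 32.4, and the trophoblast list to 158 and 180.5 and to between 155 and 282. The part of these marker levels in the results was not tested.

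Collagens are triple helices of like or different chains. Fibrillar collagens form the fibres of connective tissue, and fibril-associated collagens such as COL12A1 bind to those fibres. Type IV collagen forms the network of basement membranes, where the chains combine in a limited number of trimers. COL4A1 with COL4A2 is the ubiquitous form, COL4A3 with COL4A4 and COL4A5 is the form of the mature glomerulus, and COL4A5 with COL4A6 is found in smooth muscle and some epithelial basement membranes. Laminins are trimers of an alpha, a beta and a gamma chain, and form the other basement membrane network. Integrins are receptors of an alpha and a beta subunit that bind these proteins. In human pluripotent stem cells, integrins with ITGA6 and ITGB1 bind laminin, ITGA5 with ITGB1 binds fibronectin, and ITGAV with ITGB5 binds vitronectin.

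The 6 type IV collagen genes lie in 3 head-to-head pairs, and they are shown first because the chains of each pair differed from the mock controls with the same sign. The windows are from RefSeq on GRCh38.p14 and run from 250 bases before to 50 after the start site, on the strand of the gene. Capitals mark the stretch that a window shares with the window of its partner, which reads the same bases on the other strand.
COL4A1 (chr13:110307108-110307407, minus strand): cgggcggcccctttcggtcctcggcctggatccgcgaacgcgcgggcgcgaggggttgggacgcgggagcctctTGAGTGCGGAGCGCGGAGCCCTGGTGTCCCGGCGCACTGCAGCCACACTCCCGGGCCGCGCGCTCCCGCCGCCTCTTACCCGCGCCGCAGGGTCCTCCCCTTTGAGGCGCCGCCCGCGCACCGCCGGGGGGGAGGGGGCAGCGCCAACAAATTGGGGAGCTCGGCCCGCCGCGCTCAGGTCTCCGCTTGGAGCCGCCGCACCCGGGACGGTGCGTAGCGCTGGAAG
COL4A2 (chr13:110307034-110307333, plus strand): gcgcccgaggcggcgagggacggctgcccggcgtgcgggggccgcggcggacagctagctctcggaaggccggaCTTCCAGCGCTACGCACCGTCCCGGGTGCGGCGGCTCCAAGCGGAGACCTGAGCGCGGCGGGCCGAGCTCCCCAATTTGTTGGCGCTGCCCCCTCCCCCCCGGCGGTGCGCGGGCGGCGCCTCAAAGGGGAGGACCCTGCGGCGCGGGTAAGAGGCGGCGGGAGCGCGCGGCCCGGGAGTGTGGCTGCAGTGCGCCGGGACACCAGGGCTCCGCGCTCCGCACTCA
COL4A3 (chr2:227164374-227164673, plus strand): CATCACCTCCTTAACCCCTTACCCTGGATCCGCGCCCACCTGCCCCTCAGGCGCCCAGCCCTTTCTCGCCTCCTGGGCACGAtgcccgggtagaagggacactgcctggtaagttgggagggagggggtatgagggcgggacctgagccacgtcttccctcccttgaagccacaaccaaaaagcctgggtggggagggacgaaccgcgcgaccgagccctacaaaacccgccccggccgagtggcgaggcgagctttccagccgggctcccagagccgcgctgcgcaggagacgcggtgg
COL4A4 (chr2:227164156-227164455, minus strand): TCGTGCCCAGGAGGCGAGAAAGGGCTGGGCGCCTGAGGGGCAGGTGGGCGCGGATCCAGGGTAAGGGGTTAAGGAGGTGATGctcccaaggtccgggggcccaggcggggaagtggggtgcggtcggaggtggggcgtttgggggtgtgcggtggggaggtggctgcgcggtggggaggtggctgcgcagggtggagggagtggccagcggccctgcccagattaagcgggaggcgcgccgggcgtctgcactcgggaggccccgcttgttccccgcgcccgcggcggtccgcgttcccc
COL4A5 (chrX:108439588-108439887, plus strand): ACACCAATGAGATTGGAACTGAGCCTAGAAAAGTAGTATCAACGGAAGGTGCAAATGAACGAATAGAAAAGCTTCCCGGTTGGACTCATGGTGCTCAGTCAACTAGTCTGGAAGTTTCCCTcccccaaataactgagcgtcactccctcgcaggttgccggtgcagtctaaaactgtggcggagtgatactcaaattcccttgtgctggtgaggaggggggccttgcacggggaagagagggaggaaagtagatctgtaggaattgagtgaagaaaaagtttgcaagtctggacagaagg
COL4A6 (chrX:108439409-108439708, minus strand): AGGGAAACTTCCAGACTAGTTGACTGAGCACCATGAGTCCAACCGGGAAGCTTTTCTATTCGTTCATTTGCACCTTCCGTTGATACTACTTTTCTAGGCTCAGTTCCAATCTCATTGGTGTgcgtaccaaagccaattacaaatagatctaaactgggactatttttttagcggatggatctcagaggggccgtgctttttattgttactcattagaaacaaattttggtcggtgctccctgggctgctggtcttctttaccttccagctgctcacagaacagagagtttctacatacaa

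The start sites of COL4A1 and COL4A2 are 127 bases apart and their windows share 226 bases. For COL4A5 and COL4A6 the start sites are 380 bases apart with 121 bases shared, and for COL4A3 and COL4A4 they are 419 bases apart with 82 bases shared. RefSeq gives COL4A6 a further start site, whose window is not shown. GC content was 76.7% and 77.7% in the windows of COL4A1 and COL4A2, 67.7% and 74.0% in those of COL4A3 and COL4A4, and 49.3% and 43.7% in those of COL4A5 and COL4A6, against a median of 58.7% over 35116 windows. Searched on both strands, the CCAAT box (CCAAT) was found in the windows of COL4A1, COL4A2, COL4A5 and COL4A6, and in 34.6% of all windows. The GC box (GGGCGG) was found in those of COL4A1, COL4A2 and COL4A3, and in 45.0% of all windows. The TATA box (TATAAA) was found in none of the 6 and in 11.5% of all windows. The window of the further COL4A6 start site has 50% GC and a GC box, but no CCAAT or TATA box. The values above for COL4A6 thus hold only for the window shown, which was chosen because it shares more bases with that of COL4A5. None of the 3 motifs overlaps another, and a match describes the letters only.

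Most members were expressed, and their levels spanned several orders of magnitude. Of the 79, 74 reached a normalized count of 10 in at least 2 samples and were tested. The other 5 were COL3A1, COL6A6, ITGA8, ITGB3 and ITGB7, of which COL3A1 was the highest at 9.65 in a mock control. COL6A5 and COL8A1 passed this filter through CFIm25-m samples alone. On the scale of normalized counts per kilobase of the listed gene length, averaged over all samples, the median of the tested members was 53.1 and that of all tested genes was 66.7. ITGB1, the common integrin beta subunit, had the highest level at 1671 per kilobase. COL18A1, a basement membrane collagen, followed at 1299, ITGB5 at 907, ITGA6 at 860 and COL6A1 at 841.

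**Figure D1:**
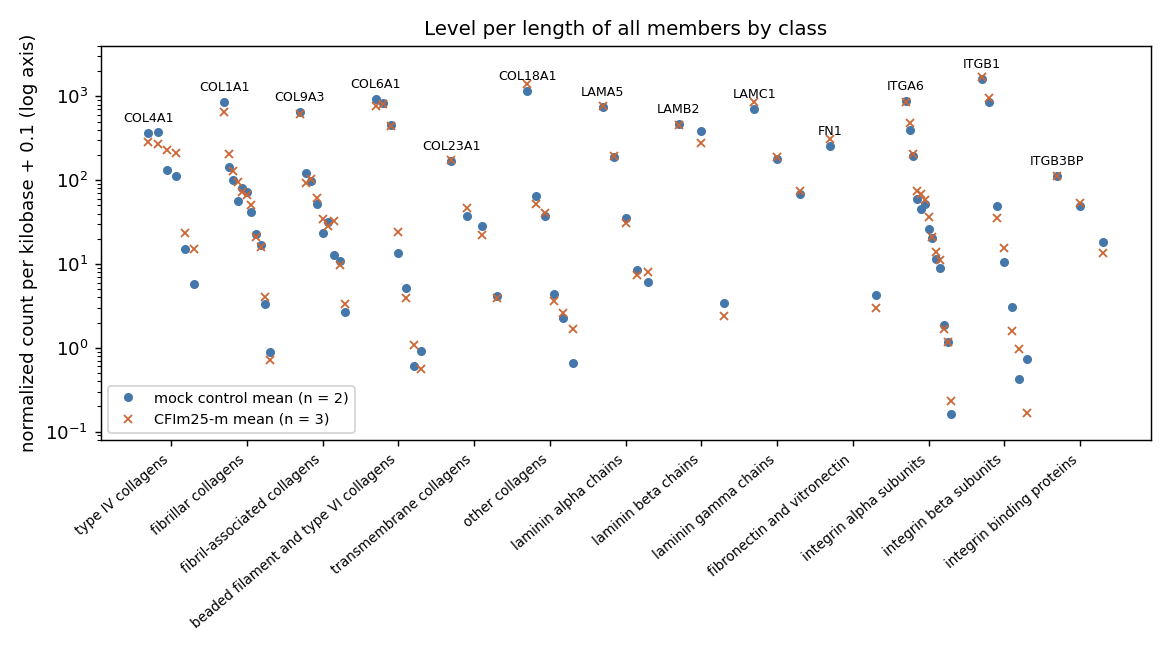
Mean normalized count per kilobase (log axis, 0.1 added) of all 79 members by class, for the mock controls (circles, n = 2) and CFIm25-m (crosses, n = 3). The name is that of the member highest in its class. ITGB1 and COL18A1 lie above 1000 per kilobase in both groups.

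Few members passed the test between CFIm25-m and mock controls. With limma-trend and adjustment over all 19232 tested genes, 3 members were higher in CFIm25-m (COL4A5, COL4A6 and COL12A1) and 0 were lower. Over all genes 1.88% were called, 0.941% higher and 0.936% lower, and for the members the share was 4.05%. At an unadjusted p under 0.05 there were 21 members (28.4%, against 15.1% of all genes), 15 higher and 6 lower. Of all 19232 tested genes, 1536 were higher and 1375 (7.15%) were lower at that p. The groups did not overlap in 35 members (47.3%), 25 higher and 10 lower, against 36.8% of all genes (3275 higher and 3799 lower). The 25 include COL6A5 and COL8A1, which the filter admitted through CFIm25-m alone. Among genes that reached 10 in both groups, 33 of 72 members did not overlap (45.8%, 23 higher and 10 lower), against 35.6% of all genes (2947 higher and 3691 lower). With edgeR 3 members were higher and 1 was lower (1.81% of all genes called), and with DESeq2 7 were higher and 4 were lower of 65 with an adjusted p (16.9%, against 3.7% of all genes). The median log2 fold change was 0.05 over the members and -0.01 over all tested genes. Fewer cells expressing a gene and less RNA of it per cell cannot be told apart in these bulk samples.

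**Figure D2:**
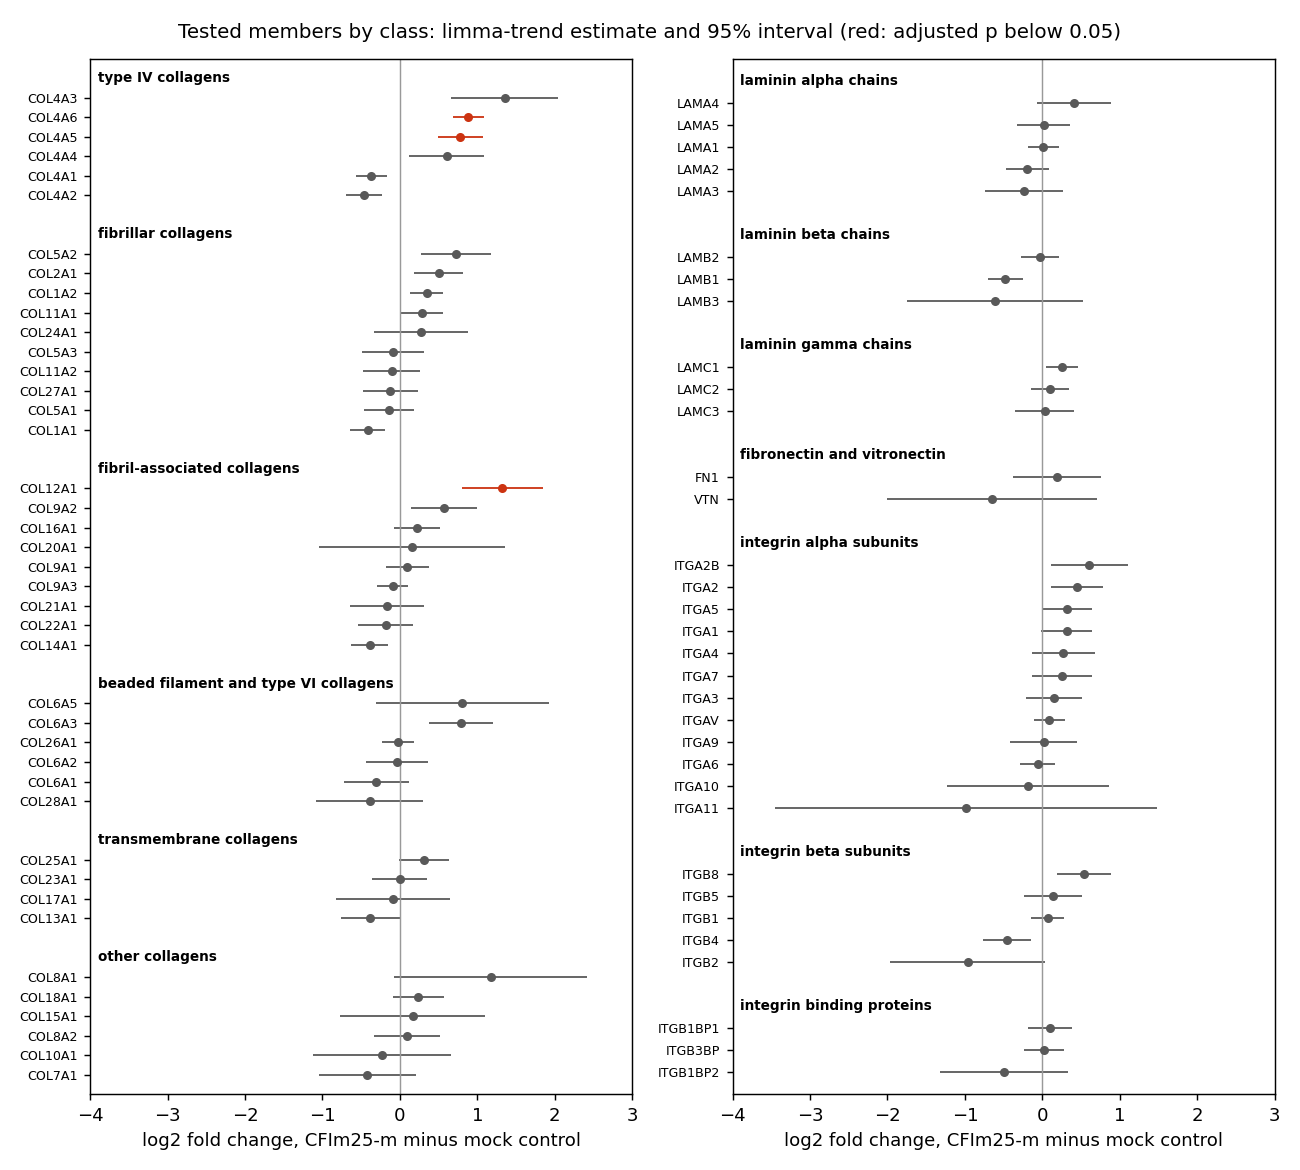
Log2 fold change, CFIm25-m minus mock control, of the 74 tested members by class, on the log2(normalized count + 1) scale with 95% intervals from limma-trend. Red marks COL4A5, COL4A6 and COL12A1, the 3 members with an adjusted p below 0.05.

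Type IV collagen was the class in which all chains separated the groups, and the sign of the difference was not the same for the 3 pairs. COL4A5 and COL4A6 rose in CFIm25-m. COL4A1 and COL4A2 were lower and COL4A3 and COL4A4 higher in every CFIm25-m sample than in every mock control, without passing the threshold. All 6 chains had an unadjusted p under 0.05.

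COL4A6 (minus strand, chrX:108155607-108439497 on hg38) was at 1032 and 1069 in the mock controls and at 1945, 1975 and 1895 in CFIm25-m, a 1.85-fold difference of means (log2 fold change 0.88, SE 0.089, adjusted p = 0.00133). The 3 clones lay close together, and far above both mock controls. COL4A5 (plus strand, chrX:108439844-108697545), the chain that joins both minor trimers, was at 1561 and 1540.2 in the mock controls and at 2457, 2399 and 3213 in CFIm25-m (log2 fold change 0.78, SE 0.13, adjusted p = 0.0159). CFIm25-m replicate 3 was the highest of the 5 samples, and the other clones lay between it and the mock controls. The adjusted p of COL4A5 was 0.0621 without CFIm25-m replicate 1. Without mock control replicate 1 or 2, which leaves 1 control, its log2 fold change was 0.79 or 0.77.

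COL4A1 was at 5346 and 5388 in the mock controls and at 3918, 4212 and 4324 in CFIm25-m (log2 fold change -0.37, SE 0.09, adjusted p = 0.0764). COL4A2 was at 7119.6 and 7304 and at 4802, 5092 and 5837 (log2 fold change -0.46, SE 0.10, adjusted p = 0.0608). For both chains every clone lay below both mock controls, and the means differed by -22.7% and -27.3%. Without CFIm25-m replicate 3 the adjusted p was 0.00414 for COL4A1 and 0.000646 for COL4A2, and with DESeq2 on all samples it was 0.0209 and 0.00925. It was 0.191 and 0.181 without CFIm25-m replicate 1, and 0.240 and 0.234 in limma without trend. Leaving out mock control replicate 1 or 2 leaves 1 control. The log2 fold change was then -0.38 or -0.37 for COL4A1 and -0.48 or -0.45 for COL4A2. In the deposited annotation the 2 genes overlap by 1422 bases on opposite strands, and the strand setting of the counting is not given in the sources used here, so reads in that stretch could belong to either.

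COL4A3 and COL4A4 were the least abundant chains. COL4A3 was at 39.2 and 64.7 in the mock controls and at 110.2, 104 and 191 in CFIm25-m (log2 fold change 1.35, SE 0.31, adjusted p = 0.0649). The lowest clone was above the higher mock control, and replicate 3 stood well above the other clones. An antisense gene, AC097662.1, overlaps COL4A3 with means of 30.4 in the mock controls and 42.9 in CFIm25-m. Without CFIm25-m replicate 3 the log2 fold change of COL4A3 was 1.08 with an adjusted p of 0.0418, and the adjusted p was 0.00536 with DESeq2. It was 0.165 without CFIm25-m replicate 1 and 0.101 without CFIm25-m replicate 2. Without mock control replicate 1 or 2, which leaves 1 control, the log2 fold change of COL4A3 was 1.00 or 1.71. COL4A4 was at 151 and 148 and at 169, 238 and 291 (log2 fold change 0.60, 95% interval 0.12 to 1.09, adjusted p = 0.228), with replicate 1 only slightly above the mock controls.

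**Figure D3:**
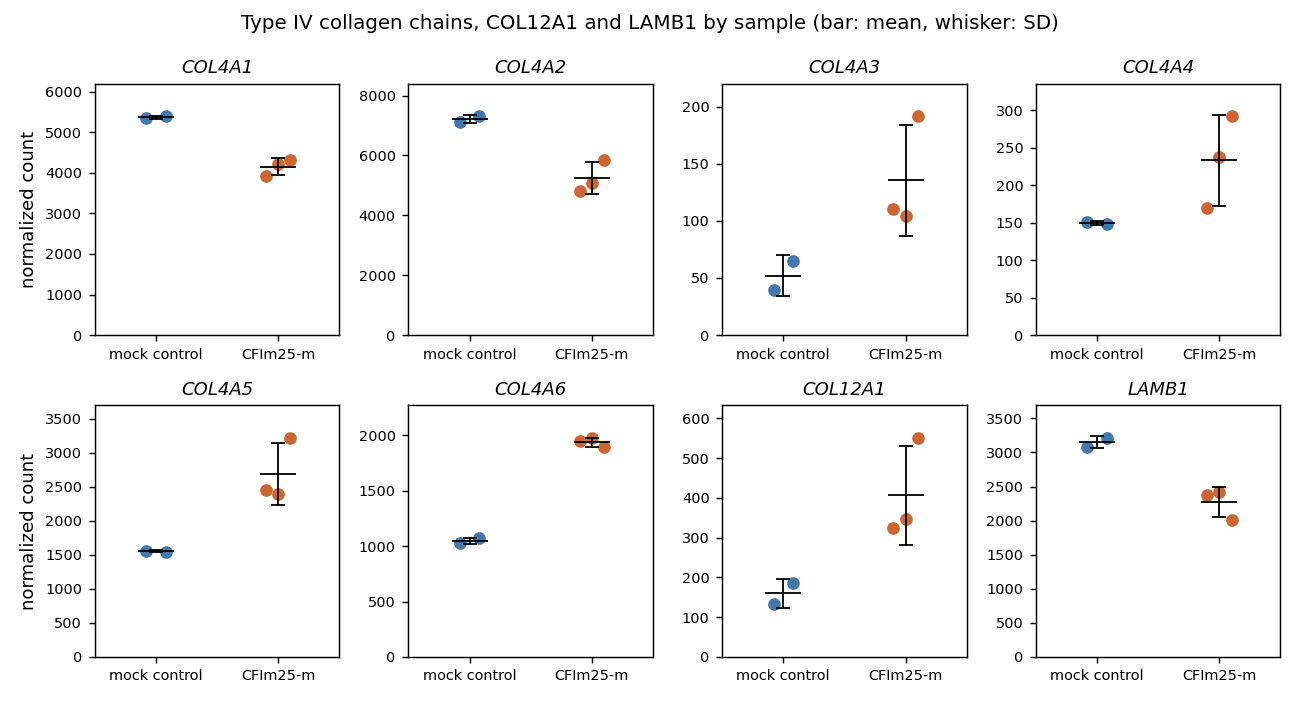
Normalized counts of the 6 type IV collagen chains, COL12A1 and LAMB1 in each sample (points), with the mean (bar) and SD (whisker) of mock controls (n = 2) and CFIm25-m (n = 3), each on its own axis from 0. The groups do not overlap in any of the 8 panels.

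Per kilobase of gene length, the sum of the 6 chains was 994 and 1011 in the mock controls, against values of 960, 1000 and 1121 in CFIm25-m, so these ranges overlapped. The make-up of that sum differed. COL4A5 and COL4A6 together held 24.4% and 24.2% of it in the mock controls, against 43.4%, 41.5% and 42.4% in CFIm25-m. The share of COL4A1 and COL4A2 was 73.6% in each mock control and 53.6%, 55.0% and 53.2% in CFIm25-m. COL4A3 and COL4A4 held 1.94% and 2.15%, and 3.01%, 3.50% and 4.45%. The 3 clones lay close together in the share of the first pair, although replicate 3 stood above the others in COL4A5. These shares restate the chain levels and were given no test. They also depend on the listed gene lengths, 14738 and 19293 bases for COL4A1 and COL4A2 and 11865 and 9282 for COL4A5 and COL4A6. The lengths of the transcripts expressed were not examined.

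**Figure D4:**
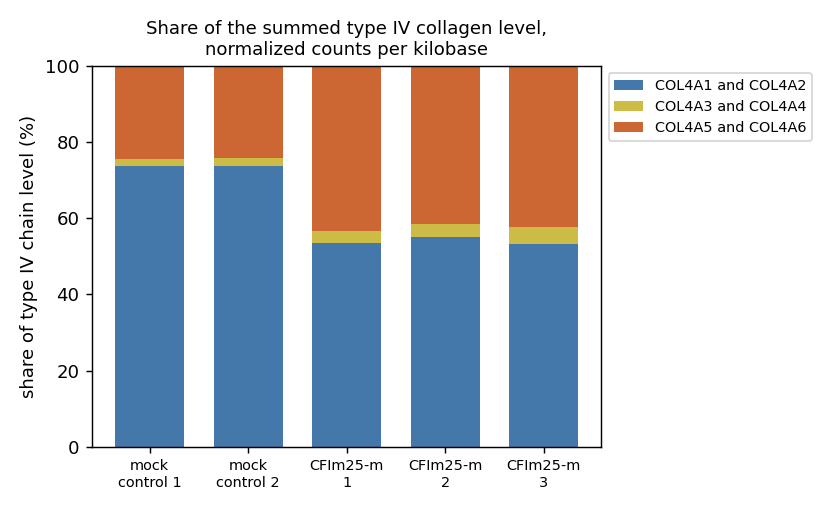
Share (%) of the summed normalized counts per kilobase of the 6 type IV collagen chains held by each head-to-head pair in each sample. The share of COL4A5 and COL4A6 (upper segment) is 24.4% and 24.2% in the mock controls and between 41.5% and 43.4% in CFIm25-m.

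None of the genes nearest to these pairs passed the threshold. Of the 10 tested genes nearest to COL4A5 and COL4A6, all within 173237 bases, 0 were called and the median log2 fold change was -0.14 (range -0.80 to 1.69). Over 700 tested genes of the X chromosome the median was 0.01, with 18 higher and 12 lower. Around COL4A1 and COL4A2 the median of the 10 nearest was 0.04 (range -0.59 to 0.22, the farthest 870451 bases away). Around COL4A3 and COL4A4 it was -0.02 (range -0.65 to 0.46, the farthest 2042837 bases away), with 0 called at either.

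COL12A1 had the largest increase among the called members. This fibril-associated collagen (minus strand, chr6:75084326-75206051) was at 134 and 185 in the mock controls and at 324, 347 and 550.2 in CFIm25-m, or 2.55-fold (log2 fold change 1.32, SE 0.23, adjusted p = 0.0226). Every clone was above both mock controls, and CFIm25-m replicate 3 was the highest. The call was lost without CFIm25-m replicate 1 (adjusted p = 0.0707) and without CFIm25-m replicate 2 (0.0682). Without mock control replicate 1 or 2, which leaves 1 control, the log2 fold change was 1.09 or 1.56. Of the 10 tested genes nearest to COL12A1, 1 was called, the lincRNA AL591030.1 at a distance of 1355277 bases, which was lower in every clone (log2 fold change -1.58, adjusted p = 0.00878). Of the other 8 fibril-associated collagens none passed the threshold. COL9A3, the most abundant of them per kilobase, was at 3094 and 3272 and at 2999.7, 3131 and 2816, and the groups overlapped (log2 fold change -0.09, 95% interval -0.30 to 0.11). COL14A1, which also binds fibrils, was at 1011 and 1101 and at 849, 831 and 739, lower in every clone (log2 fold change -0.39, adjusted p = 0.113).

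Of 10 tested fibrillar collagens 0 were called, while 5 had an unadjusted p under 0.05 (15.1% of all genes did) and 6 did not overlap between groups (60.0%, against 36.8%). The chains of type I collagen lay on opposite sides. COL1A1 was at 8180.0 and 8705 in the mock controls and at 5749, 6829 and 6427 in CFIm25-m (log2 fold change -0.42, adjusted p = 0.0828), and COL1A2 was at 1124 and 1107 and at 1408, 1493 and 1350.5 (log2 fold change 0.34, adjusted p = 0.113). Every clone was below both mock controls in COL1A1 and above both in COL1A2. COL5A2, a chain of type V collagen, was at 422 and 410.1 and at 513, 686 and 922 (log2 fold change 0.72, adjusted p = 0.123), while its partner COL5A1 was at 896 and 889.8 and at 655, 864 and 934, with overlapping groups. COL2A1, the cartilage collagen, was at 944 and 947 and at 1148, 1632 and 1274 (log2 fold change 0.50, adjusted p = 0.123). With DESeq2 the adjusted p was 0.0154 for COL1A1, 0.0154 for COL5A2 and 0.0314 for COL2A1. Without CFIm25-m replicate 3, COL1A1 and COL1A2 passed in limma-trend too, whereas the adjusted p of COL1A1 was 0.208 without CFIm25-m replicate 1. Without mock control replicate 1 or 2, which leaves 1 control, the log2 fold change of COL1A1 was -0.46 or -0.37.

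Type VI collagen, which forms beaded filaments from 3 chains, showed no common direction. COL6A3 was at 267 and 266 in the mock controls and at 369, 447 and 600.2 in CFIm25-m (log2 fold change 0.79, SE 0.19, adjusted p = 0.0699). Its partner COL6A1 was at 4971 and 5027 and at 3334, 3544 and 5589 (log2 fold change -0.31, 95% interval -0.73 to 0.11), where replicates 1 and 2 lay below and replicate 3 above both mock controls. COL6A2 was at 2307 and 2539 and at 1766, 2519 and 2939, with overlapping groups. COL6A3 was thus higher in every clone, while COL6A1 and COL6A2 were below the mock controls in replicate 1 and above them in replicate 3. COL18A1, whose end fragment is endostatin, was at 9776 and 10058 and at 9718, 11572 and 14262 (log2 fold change 0.24, 95% interval -0.09 to 0.57). COL23A1, the most abundant transmembrane collagen per kilobase, was at 639 and 641 and at 514, 654 and 778 (log2 fold change -0.00039, 95% interval -0.36 to 0.35). Of the 4 transmembrane and 6 other collagens tested, none passed at an unadjusted p under 0.05, so the 15 collagens with such a p were the 6 type IV chains, 5 fibrillar and 3 fibril-associated collagens and COL6A3.

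Of 11 laminin chains, all tested, 0 were called, 2 had an unadjusted p under 0.05 (18.2%, against 15.1% of all genes) and 5 did not overlap between groups (45.5%, against 36.8%), so both shares were near those of all genes. LAMB1, the beta chain of the laminins of early embryos, was at 3085 and 3209.8 in the mock controls and at 2374, 2414 and 2016 in CFIm25-m (log2 fold change -0.48, SE 0.10, adjusted p = 0.0526). Every clone was below both mock controls, and the adjusted p was 0.0481 with edgeR, 0.00437 with DESeq2 and 0.00517 without CFIm25-m replicate 3. It was 0.0553 with voom, 0.225 in limma without trend and 0.121 without CFIm25-m replicate 1. Without mock control replicate 1 or 2, which leaves 1 control, the log2 fold change of LAMB1 was -0.51 or -0.45. DLD, which overlaps LAMB1 on the opposite strand, had means of 2397 in the mock controls and 2071 in CFIm25-m (log2 fold change -0.22). LAMC1, the gamma chain that most laminins share, was at 6066 and 5908 and at 6659, 7471 and 7317, higher in every clone (log2 fold change 0.25, 95% interval 0.04 to 0.46, adjusted p = 0.24).

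The other laminin chains had unadjusted p-values over 0.05. LAMA4, an alpha chain of vessel and muscle laminins, was at 72.6 and 64.7 and at 87.2, 81.9 and 106, higher in every clone (log2 fold change 0.41, 95% interval -0.07 to 0.88). LAMA2 was lower in every clone, with a log2 fold change of -0.19, while the groups overlapped in LAMA3 (-0.24). The abundant alpha chains and LAMB2 had estimates near 0. LAMA1 was at 3089 and 2944 and at 2868, 3076 and 3201 (log2 fold change 0.01, 95% interval -0.19 to 0.22). LAMA5, the alpha chain of the laminins used to culture stem cells, was at 10565 and 10826 and at 9421, 9755 and 13757 (log2 fold change 0.02, 95% interval -0.33 to 0.36). In LAMA5 replicates 1 and 2 were below both mock controls and replicate 3 was above them. LAMB2, the other abundant beta chain, was at 3258 and 3146 and at 2953, 2922 and 3573 (log2 fold change -0.03, 95% interval -0.27 to 0.21). The intervals of LAMA1, LAMA5 and LAMB2 run to both sides of 0, and that of LAMA5 is the widest of the 3.

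Of 20 integrin subunits 17 were tested and 0 were called by limma-trend, edgeR or DESeq2, while 4 had an unadjusted p under 0.05 (23.5%, against 15.1% of all genes) and 9 did not overlap between groups (52.9%, against 36.8%). ITGB1 was at 9869 and 9653 in the mock controls and at 9775, 10084 and 10845 in CFIm25-m (log2 fold change 0.07, 95% interval -0.15 to 0.28). Its laminin-binding partner ITGA6 was at 5774 and 5743 and at 6023, 5111 and 5444 (log2 fold change -0.06, 95% interval -0.28 to 0.16). The groups overlapped in both genes. Of the fibronectin and vitronectin receptors, ITGA5 was at 437 and 455 and at 459, 615 and 609 (log2 fold change 0.32, 95% interval -0.01 to 0.64), higher in every clone, with replicate 1 just above the mock controls. ITGAV was at 1602 and 1561 and at 1663, 1624 and 1759 (log2 fold change 0.09, 95% interval -0.11 to 0.29), also without overlap. ITGB5 was at 5242 and 5675 and at 4530.2, 6940.3 and 6853 (log2 fold change 0.14, 95% interval -0.24 to 0.51), with replicate 1 below and the other clones above the mock controls.

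The integrins with an unadjusted p under 0.05 were ITGA2, ITGA2B, ITGB4 and ITGB8. All 4 are named for their values, ITGB4 as 1 of the 3 largest decreases among members with a mean of at least 100. ITGB4, the partner of ITGA6 in hemidesmosomes, was at 310.0 and 346 in the mock controls and at 219, 253 and 244 in CFIm25-m (log2 fold change -0.46, adjusted p = 0.153). GALK1 overlaps it on the opposite strand with a higher mean count, 739 in the mock controls and 631 in CFIm25-m. ITGB8, a partner of ITGAV, was at 163 and 154 and at 259.6, 226 and 211 (log2 fold change 0.54, adjusted p = 0.133). ITGA2, a collagen-binding subunit, was at 220.1 and 197 and at 284, 254 and 318 (log2 fold change 0.45, adjusted p = 0.197). ITGB4 was lower and ITGB8 and ITGA2 higher in every clone, whereas in ITGA2B replicate 1 lay between the mock controls. The 3 integrin-binding proteins had log2 fold changes of 0.10 (ITGB1BP1), -0.49 (ITGB1BP2) and 0.02 (ITGB3BP), and none passed at an unadjusted p under 0.05.

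FN1, which encodes fibronectin, was at 4496 and 4380.4 in the mock controls and at 3803, 4257 and 8054 in CFIm25-m (log2 fold change 0.19, 95% interval -0.38 to 0.76, adjusted p = 0.759). Replicates 1 and 2 lay below both mock controls and replicate 3 was far above them, and without that clone the log2 fold change was -0.14. VTN, which encodes vitronectin, was near the detection limit at 12.7 and 7.72 and 4.01, 3.6 and 13.5. SARM1 overlaps VTN on the opposite strand with means of 93.6 and 131, so part of the VTN reads could belong to it. Of the 79 members 38 overlap another listed gene, 36 of them a gene on the opposite strand, and in 16 that gene had a mean count of at least 10% of the member's.

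CFIm25-m replicate 3 stood apart in these genes. It was the highest of the 5 samples in 34 of the 74 tested members (45.9%), against 27.9% of all tested genes. The median log2 difference of the members from the mock control mean was -0.10, 0.07 and 0.26 in CFIm25-m replicates 1, 2 and 3. Without replicate 3, 7 members were called higher and 7 lower of 71 tested, against 5.55% of all genes in either direction. The 7 higher were COL12A1, COL1A2, COL4A3, COL4A5, COL4A6, COL6A3 and ITGB8, and the 7 lower were COL14A1, COL1A1, COL4A1, COL4A2, COL6A1, COL7A1 and LAMB1. All 3 members called on the full set were among them.

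Genes that make, modify or bind these proteins were described by lists chosen with earlier results of these data known. Of 28 tested genes for collagen biosynthesis 1 was higher, 0 were lower and the median log2 fold change was -0.003, where 1.88% of all genes were called. Of the 28, 7 had an unadjusted p under 0.05 (15.1% of all genes did) and 16 did not overlap between groups (36.8% of all genes). The call was P3H2, a prolyl 3-hydroxylase that acts on type IV collagen, at 242 and 262 in the mock controls, against 545, 572 and 418 in CFIm25-m (log2 fold change 1.01, SE 0.15, adjusted p = 0.0103). Among 18 other basement membrane genes 1 was higher and 0 were lower, with a median of -0.07. Of the 18, 6 had an unadjusted p under 0.05 and 10 did not overlap between groups. The called gene was SMOC2, a calcium-binding matrix protein, at 108 and 128 and 279.6, 304 and 189 (log2 fold change 1.09, SE 0.22, adjusted p = 0.0354). All clones were above both mock controls in P3H2 and in SMOC2.

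Of 11 other matrix receptors 2 were higher, 0 were lower and the median was -0.08, where 1.88% of all genes were called. Of the 11, 4 had an unadjusted p under 0.05 (15.1% of all genes did) and 5 did not overlap between groups (36.8% of all genes). DDR2, a receptor tyrosine kinase for fibrillar collagen, was at 539 and 503 in the mock controls, against 929, 1181 and 932 in CFIm25-m (log2 fold change 0.95, SE 0.13, adjusted p = 0.0064). GPC4, a proteoglycan of the cell surface, was at 8347 and 8354 and 11886, 14097 and 11954 (log2 fold change 0.59, SE 0.11, adjusted p = 0.0252). In both receptors replicate 2 was the highest clone and no clone overlapped the mock controls. Of 28 genes of the integrin adhesion complex, such as TLN1, VCL and ILK, 0 were called by limma-trend or DESeq2 and the median was -0.05. Of the 28, 2 had an unadjusted p under 0.05 and 12 did not overlap between groups.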

How the data were processed

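Poly(A+) RNA of 2 mock control and 3 CFIm25-m samples of H9 cells was sequenced by the authors as paired reads. Per the labels, HISAT2, featureCounts of Subread and DESeq2 were used with genome build hg38, while versions, annotation release and strand setting are not given in the sources used here. The authors deposited 1 gene table of normalized counts, a signal in which the reads of a library are scaled by its size factor. Its columns of group means were used only as a check, and its columns of fold changes and p-values were not used. Groups and replicate numbers came from the labels. The 2 columns named H9 were taken as mock controls because their replicate numbers match those titles and the deposited control mean is their mean. The study picked its mock controls as separate clones. It also used untransfected H9 cells, and the labels do not settle which kind the 2 controls are. P-values thus measure the spread between clones in CFIm25-m, and in the controls only if these are clones too.

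Genes with at least 10 normalized counts in at least 2 samples (19232 of 33857) entered a limma-trend fit (limma 3.58.1, R 4.3.3) of log2(value + 1), with no covariates. Fold changes on this scale understate the change of low genes. P-values are two-sided and had Benjamini-Hochberg adjustment over all tested genes, and 0.05 was the threshold. Each value was a whole multiple of 1 step (100% within 0.01 reads), so reads were recovered and tested with edgeR 4.0.16 (quasi-likelihood) and DESeq2 1.42.0 (Wald) as alternatives. The floor of detection was taken as 3 reads, which covers counting error only. With 2 samples against 3 there are 10 arrangements, so a permutation of the samples cannot give a p-value under 0.05. The tests were tried on simulated counts first.

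Members, gene lists and the genes named were chosen with earlier results of these data known. Named genes were the called members, the 6 type IV chains, the most abundant member of each class per kilobase, the main laminin chains and integrins, FN1, VTN, the 3 largest increases and decreases among members with a mean of at least 100, and NUDT21. COL14A1, COL1A2, COL5A1, COL5A2, COL2A1, COL6A2, COL6A3, LAMA2, LAMA3, LAMA4, ITGA2, ITGA2B, ITGB8, AFP and AL591030.1 were added after their values were seen. Promoter windows came from RefSeq (GRCh38.p14), where 58 of 79 members matched by symbol. Other alternatives were TMM and upper-quartile scaling, other filters and pseudocounts, limma without trend, limma-voom, leaving out each sample and a replicate block.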

Additional observations from a re-analysis of the deposited data

How the results depend on the processing

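The numbers of members and of all genes called depended on the variance model and on which samples were used, CFIm25-m replicate 3 among them. For the members the main counts were 3 higher and 0 lower. TMM scaling, a pseudocount of 5 and edgeR each gave 1 lower (LAMB1), limma without trend gave 0 higher, and DESeq2 gave 7 higher and 4 lower. Leaving out each CFIm25-m sample in turn gave 1 to 7 higher and 0 to 7 lower, with 7 and 7 without CFIm25-m replicate 3. With a replicate block 12 were higher and 10 were lower. Of all 19232 tested genes, 361 were called in the main fit, 46 by limma without trend and 628 by DESeq2. The block called 2107 of them, and 1044 of 18809 were called without CFIm25-m replicate 3. Without CFIm25-m replicate 1 it was 143 of 18891, and without CFIm25-m replicate 2 it was 201 of 19000. These changes in the member counts had the same direction as those over all genes, except with edgeR, which called 348 of all genes. The replicate numbers did not pair the samples (correlations of deviations between -0.018 and 0.018), and since replicate 3 has no partner in the mock controls, the block takes its estimates from the other 4 samples. COL4A6 lost its call in limma without trend (adjusted p = 0.0638) and kept it in each other alternative run that had both controls. COL4A5 (0.162) and COL12A1 (0.170) also lost theirs without trend, and COL12A1 with voom (0.0617). In limma-trend without CFIm25-m replicate 1, COL4A5 (0.0621) and COL12A1 (0.0707) lost their calls, as did COL12A1 without CFIm25-m replicate 2 (0.0682). Fits with 1 control left are described by effect size only, and for COL4A6 the log2 fold change was then 0.86 or 0.91.

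Of 397 values for 25 named genes under the alternatives, 347 kept direction and side of the threshold, 22 passed it anew, 10 no longer passed and 18 changed sign, none of them a called gene. For COL23A1 the log2 fold change was 0.019 with TMM, 0.041 with upper-quartile scaling, 0.020 with voom, 0.042 with edgeR, 0.032 with DESeq2 and up to 0.16 with a sample left out (lowest -0.14). FN1 changed to -0.14 with the block and without CFIm25-m replicate 3. LAMA1 changed to -0.022 and LAMA5 to -0.16 with the block, and LAMB2 to 0.011 with upper-quartile scaling. With a sample left out LAMA1 ran from -0.022 to 0.057, LAMA5 from -0.16 to 0.12, FN1 from -0.14 to 0.40 and LAMB2 from -0.12 to 0.021. The cause was not tested. With 2 and 3 samples, differences smaller than the intervals given were not detectable, and genes near 3 reads per library could not be compared.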

Other observations

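Matrix proteases and their inhibitors were not part of the comparison above. Of 21 tested genes of that list 0 were called by limma-trend, 8 had an unadjusted p under 0.05 (against 15.1% of all genes) and 3 were called by DESeq2 (against 3.7%), and the median log2 fold change was 0.15, against -0.01 over all tested genes. MMP2, a gelatinase that cleaves type IV collagen, was at 677 and 749.8 in the mock controls and at 923, 1303 and 1003 in CFIm25-m (log2 fold change 0.58, adjusted p = 0.0877). MMP16, a membrane-bound protease, was at 1383 and 1272 and at 2057, 1716 and 1769.8 (log2 fold change 0.47, adjusted p = 0.0617). Both were higher in every clone. TIMP4, a protease inhibitor of low level, was at 55.3 and 63.7 and at 18, 23.4 and 31.7 (log2 fold change -1.28, adjusted p = 0.0828), lower in every clone. These genes were named after their values were seen.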
